A study of Saccharomyces cerevisiae with 12 samples.

Results

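The data described here were the transcriptional response of the budding yeast (Saccharomyces cerevisiae) TFIIH mutant C403A to methyl methanesulfonate (MMS), a compound that methylates DNA bases. The members were chosen by sample title: 2 arrays of C403A cells treated with 0.03% MMS for 30 minutes and 2 arrays of untreated C403A cells, 4 of the 12 arrays of the series. The other 8 arrays were of wild type and of a second TFIIH mutant, C406A, each with 2 untreated arrays and 2 after the same treatment, and they entered the fit to estimate the spread. Total RNA had been hybridized to one-colour Affymetrix oligonucleotide arrays. Strain background, medium and culture stage were not given in the sources used here, and neither was the subunit that carries the substitution. As known from the study, C403A changes a cysteine of the RING finger of Ssl1.

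TFIIH melts promoters for RNA polymerase II and unwinds lesions during nucleotide excision repair, and Ssl1 is a subunit of its core. Methylated bases stall replication forks and are removed mainly by base excision, which starts with the glycosylase Mag1. In yeast the kinases Mec1, Rad53 and Dun1 answer stalled forks and breaks by inducing ribonucleotide reductase genes, and alkylating agents also set off general, oxidative and protein-damage stress programs.

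SSL1 itself read 4840 and 5021 on the untreated C403A arrays and 4939 and 5117 with MMS, while the untreated and MMS arrays of wild type lay between 1607 and 1757. The C403A arrays stood above those of wild type in SSL1 level in both conditions. The change with MMS in C403A was 0.03 ± 0.08 on the log2 scale and did not pass (adjusted p = 0.872, limma). Its sign changed to -0.13 with median scaling and -0.24 with scaling to hybridization controls. All intensities below are quantile-normalized, in arbitrary units, with a floor at 34.463. Values after ± are standard errors of the limma contrast, and genes with a Benjamini-Hochberg adjusted p under 0.05, over the 5369 tested, are said to have passed. Since the labels do not state that both arrays of a condition stem from independent cultures, the p-values reflect spread among these arrays alone, and it may be technical. In whole-population RNA, a change in the mix of cells (in cell cycle stage, for example) and a change in each cell cannot be told apart.

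Of the C403A arrays, untreated array 2 stood apart in ribosomal RNA signal. Its mean ribosomal RNA probe set intensity was 1775, against 53.7 on untreated array 1 and 342.9 and 224.6 with MMS. The untreated arrays correlated with r = 0.985 and the MMS arrays with r = 0.993 across the genes tested, and genes are not independent replicates. Limma's array weight was lowest, at 0.623, for both untreated C403A arrays. With 2 arrays a group the weights of a pair are equal. Neither the weight nor the correlation can thus say which array of the pair is the odd one. Untreated array 2 lay nearer to the MMS arrays for 63.5% of the genes that rose in C406A and for 61.8% of those that fell, against 55.1% of all genes. Each strain's arrays were scanned in one run of positions, the untreated before the MMS arrays (positions 5 and 6, then 7 and 8, in C403A). Scan order can thus be told apart neither from strain nor from treatment. The number of arrays limits the precision.

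With MMS in C403A, 13 of 14 checkpoint-induced genes, 31 of 37 proteasome genes and 17 of 32 genes each of the general stress and oxidative defence lists rose. Among daughter-cell genes 14 of 21 fell, and 10 of 21 in the G2-M cluster. Smaller shares fell in ribosome biogenesis (23 of 74), sterol synthesis (10 of 29) and respiration (14 of 45). In all, 835 genes passed (15.6% of those tested), 452 of them higher (8.42%) and 383 lower (7.13%). At an unadjusted p under 0.05 there were 1573. The rises reached further than the falls: among genes that passed, 46 rose and 7 fell by 2-fold or more, 53 in all (0.987%). Between 0.5 and 1 on the log2 scale 169 rose and 113 fell, and at smaller sizes 237 rose and 263 fell. With 2 arrays a side the conditions often separate: in 56% of all genes tested the untreated and MMS arrays did not overlap, and all 835 that passed were among these. A smaller set of 254 passed also without each of the 12 arrays in turn, 155 higher (2.89%) and 99 lower (1.84%). Single arrays mattered: 326 genes passed without C403A MMS array 1, 479 without MMS array 2, 512 without untreated array 1 and 741 without untreated array 2. In a fit to the 4 C403A arrays alone, with fewer residual degrees of freedom, 109 passed.

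Directions are relative to all genes, since quantile normalization gives every array the same distribution of intensities. The median change over the genes tested was 0.00 after quantile normalization. It was 0.28 on the values as deposited and -0.12 with scaling to hybridization controls. Accordingly 54.1% of the passed genes were higher after quantile normalization, 97.8% (359 against 8) as deposited and 35.8% (76 against 136) with hybridization control scaling. A fall below therefore means a fall against the typical gene.

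**Figure D1:**
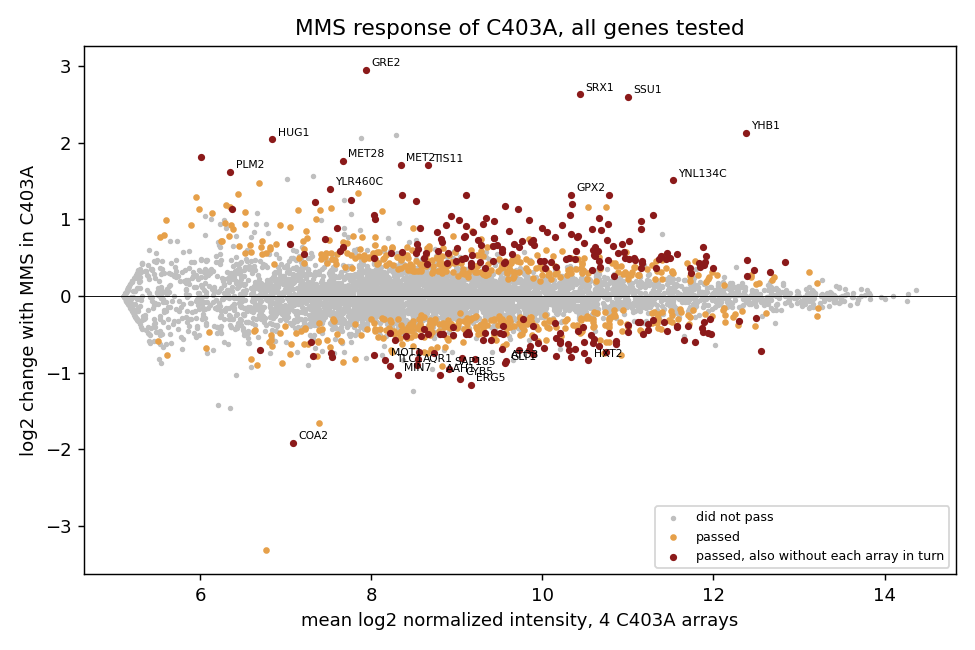
Log2 change with MMS in C403A against the mean log2 normalized intensity of the 4 C403A arrays, one point per gene tested. Orange points passed and dark red points passed also without each array in turn. Named are the 12 largest rises and falls among the latter, leaving out genes with a C403A group wholly at the floor. Rises extend to 2.95 (GRE2) and the lowest dark red point is -1.91 (COA2).

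The largest rise among genes that passed without each array was that of GRE2, which encodes a reductase of methylglyoxal and other carbonyls. GRE2 read 60.3 and 129.6 untreated and 686 and 681 with MMS, a rise of 2.95 ± 0.49 (7.73-fold, adjusted p = 0.00412, limma). Its untreated arrays differed from each other more than its MMS arrays did, and the change was 2.40 without untreated array 1 and 3.50 without untreated array 2. SRX1, the sulfiredoxin that repairs overoxidized peroxiredoxins, read 542 and 573 untreated and 3636 and 3291 with MMS (2.63 ± 0.10, 6.21-fold, adjusted p = 9.2e-07, limma). YNL134C, which encodes a protein like alcohol dehydrogenases, stood at 1733 and 1767 without and 5084 and 4881 with MMS, and rose by 1.51 ± 0.07 (adjusted p = 2.76e-06, limma). YLR460C, of the same broad protein family, moved from 119.8 and 106 to 301 and 291, a change of 1.40 ± 0.11 (adjusted p = 9.37e-05, limma). In none of these 4 did an untreated array reach an MMS array, as in every gene that passed.

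The SSU1 and YHB1 genes, targets of the regulator Fzf1, rose together. SSU1, a plasma membrane sulfite pump, read 867 and 800 untreated and 5110 and 5005 with MMS (6.07-fold, adjusted p = 9.2e-07, limma). YHB1, the flavohaemoglobin that destroys nitric oxide, read 2983 and 2170 untreated and 11420 and 10880 with MMS (4.38-fold, adjusted p = 9.13e-06, limma). Its probe set is of a type that can match several sequences, as are those of RNR3, CDC21, BUD4 and RPT5 below. Other probe sets of YHB1 rose by less, 1.92 and 1.35 on the log2 scale, against 2.13 for the one used. The list of Fzf1 targets had 3 measured members, of which 2, SSU1 and YHB1, passed.

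**Figure D2:**
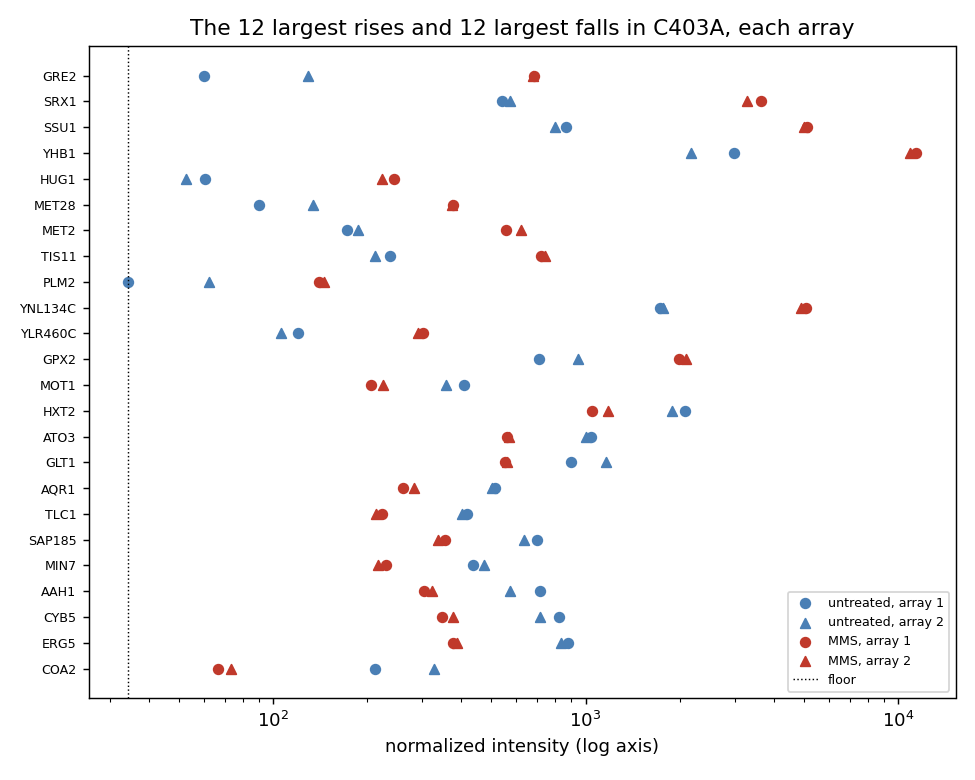
Normalized intensity (log axis) on each of the 4 C403A arrays for the 12 largest rises (upper rows) and 12 largest falls (lower rows) that passed without each array in turn. Genes with a C403A group wholly at the floor were not eligible. Blue symbols are untreated and red symbols MMS arrays, circles array 1 and triangles array 2, and the dotted line is the floor. The colours do not overlap in any row, since that was a condition of the choice. The widest gaps between untreated arrays are in GRE2 and PLM2.

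The checkpoint-induced genes rose almost throughout. Of the 14 measured members of that list, 13 rose and 0 fell, with a median of 0.76, against 8.42% and 7.13% of all genes. HUG1, a small inhibitor of ribonucleotide reductase, read 60.4 and 52.8 untreated and 243 and 224 with MMS, a rise of 2.05 ± 0.23 (adjusted p = 0.000659, limma). RNR3, which encodes the large reductase subunit made after damage, was at the floor on both untreated arrays and read 113 and 129.8 with MMS, at least 3.52-fold higher (adjusted p = 0.00041, limma). Because its untreated arrays are equal at the floor its spread may be understated, and with no floor the call was lost (5.18, adjusted p = 0.0707). PLM2, a putative transcription factor of the DNA damage response, was at the floor on untreated array 1, read 62.6 on array 2 and 140.4 and 146 with MMS (1.62 ± 0.23, adjusted p = 0.0017, limma). Its change was 0 with the floor at the 40th percentile, where all its C403A arrays fall under the floor. DDI1, a ubiquitin-binding protease homologue, read 346 and 391 untreated and 724 and 744 with MMS (1.99-fold, adjusted p = 0.000181, limma). TOS4, a fork-head protein of the checkpoint program, moved from 135 and 137 to 231 and 225 (adjusted p = 0.00306, limma). The abundant small subunits moved less. RNR2 stood at 3183 and 3249 without and 4284 and 4100 with MMS, a change of 0.38 ± 0.05 (adjusted p = 0.00138, limma), and RNR4 changed by 0.34 ± 0.05 (adjusted p = 0.00141, limma). With median scaling both calls were lost (RNR2 0.25, adjusted p = 0.0642, RNR4 0.15, adjusted p = 0.285).

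Among the checkpoint kinases and sensors 4 of 16 rose and 0 fell (median 0.10): RAD53, DUN1, the checkpoint clamp gene RAD17 and the fork mediator gene MRC1. DUN1, the kinase that relieves repression of the RNR genes, read 289 and 300.2 untreated and 477 and 464 with MMS (0.67 ± 0.11, adjusted p = 0.00339, limma).

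Repair genes moved by pathway in small numbers. Over all genes tested 8.42% rose and 7.13% fell, and no repair or replication list exceeded that share of falls. In base excision and direct repair 3 of 10 rose and 0 fell (median 0.18): MAG1, the flap nuclease gene RAD27 and the DNA ligase gene CDC9. MAG1, the 3-methyladenine glycosylase, read 129.8 and 152 untreated and 337 and 332 with MMS, which is 2.38-fold higher (adjusted p = 0.000461, limma). In nucleotide excision repair 4 of 16 rose and 1 fell (median 0.24). The risers were the damage-binding partner gene RAD23 and the 3 subunits of replication protein A, which coats single-stranded DNA in replication and all of these pathways. RFA1 read 1260 and 1251 untreated and 2345 and 2492 with MMS (1.93-fold, adjusted p = 0.00012, limma). RFA2 read 1241 and 1206 untreated and 2265 and 2175 with MMS (adjusted p = 0.000336, limma), and RFA3 2195 and 2508 without and 3448 and 3134 with MMS (adjusted p = 0.00392, limma). Of the 3 subunits RFA3 rose by the least on the log2 scale. RAD7, of the global genome branch, was the member that fell. None of the 10 measured TFIIH subunit genes passed in either direction, and their median change was 0.09.

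In recombination 3 of 15 rose (RAD54, RAD59, RDH54) and 1 fell (RMI1, of the Sgs1 complex). RAD54, a DNA translocase, read 144 and 139 untreated and 285 and 244 with MMS (0.89 ± 0.13, adjusted p = 0.00229, limma). POL30, the sliding clamp PCNA, was the 1 of 10 post-replication repair genes to pass: it read 882 and 854 untreated and 1426 and 1525 with MMS (1.7-fold, adjusted p = 0.000249, limma). A share of 1 in 10 is near the 8.42% of all genes that rose. Of 42 replication genes 10 rose and 1, the helicase subunit gene MCM7, fell (median 0.17). Besides the replication protein A genes and POL30, the risers included CDC45 and MCM6 of the replicative helicase and the primase gene PRI2.

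Most proteasome genes rose. Of 37 proteasome genes 31 rose and 0 fell, with a median of 0.47, and 19 of the 31 passed also without each array. The changes were modest and narrow: RPN8, a lid subunit, read 1064 and 1018 untreated and 1791 and 1805 with MMS (1.73-fold, adjusted p = 9.37e-05, limma), and the base ATPase gene RPT2 read 1070 and 1123 untreated and 1663 and 1645 with MMS (1.51-fold, adjusted p = 0.000241, limma). RPN5, another lid subunit, rose by 0.64 ± 0.09 (adjusted p = 0.0024, limma). RPT5 is uncertain, since another probe set of the gene moved the other way and the call was lost with the mean of its probe sets. In the ubiquitin system 14 of 26 rose and 0 fell (median 0.31). The polyubiquitin gene UBI4 read 1688 and 1670 untreated and 3151 and 3000 with MMS (1.83-fold, adjusted p = 2.2e-05, limma). UFD1 and NPL4, the cofactors with which Cdc48 extracts ubiquitylated proteins, rose by 0.76 ± 0.10 and 0.70 ± 0.08 (adjusted p = 0.001 and 0.000802, limma).

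Of 28 cytosolic and mitochondrial chaperone genes 13 rose and 0 fell (median 0.41). In wild type 23 of the 28 rose, with a median of 0.65, and in C406A 19, with a median of 0.51. The difference between C403A and wild type passed for 4 of them. HSP31, a glyoxalase and chaperone, read 1476 and 1770 untreated and 3504 and 2888 with MMS (adjusted p = 0.000659, limma). HSP78, a mitochondrial disaggregase, read 894 and 1076 without and 1721 and 1703 with MMS (adjusted p = 0.000717, limma). Its C403A response was lower than that of wild type by a log2 value of -0.97 ± 0.13 (adjusted p = 0.0193, limma). The heat shock factor gene HSF1 read 335 and 323 untreated and 463 and 512 with MMS (adjusted p = 0.00382, limma). In the endoplasmic reticulum 7 of 19 folding genes rose and 0 fell, although the list median was 0.07 and changed sign, to -0.10, with hybridization control scaling. ERO1, the oxidase that makes disulfide bonds there, carried the largest change: 857 and 868 untreated and 1986 and 1971 with MMS (2.29-fold, adjusted p = 0.0068, limma). KAR2, the lumenal Hsp70, changed by 0.44 ± 0.05 (adjusted p = 0.000971, limma), a call lost with median scaling (0.27, adjusted p = 0.103), and its partners SIL1 and LHS1 by 0.56 ± 0.08 and 0.53 ± 0.08 (adjusted p = 0.00138 and 0.0034, limma).

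Antioxidant genes rose widely. Of 32 oxidative defence genes 17 rose and 0 fell (median 0.30), including YAP1, the regulator of many of them. GPX2, a glutathione peroxidase, read 709.6 and 947 untreated and 1996 and 2102 with MMS (2.5-fold, adjusted p = 0.000212, limma). PRX1, the mitochondrial peroxiredoxin, read 593 and 542 without and 1234 and 1265 with MMS (2.2-fold, adjusted p = 2.2e-05, limma). GSH1, which catalyses the first step of glutathione synthesis, read 453 and 465 untreated and 904 and 852 with MMS (1.91-fold, adjusted p = 0.000659, limma). Each lay above both untreated values on both MMS arrays, as did every gene that passed as a rise. Among 18 aldehyde and quinone reductases 3 rose (GRE2, ZTA1 and GRE3) and 1 fell, the cytosolic acetaldehyde dehydrogenase gene ALD6 (median 0.16). In wild type 12 of the 18 rose, with a median of 0.58, and the difference between the strains passed for none of them.

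Sulfur assimilation had the highest share of rises among the biosynthetic lists. Of 31 sulfur amino acid genes 13 rose and 1 fell (median 0.16). MET28, a cofactor of the pathway's activators, read 90.0 and 135 untreated and 376 and 373 with MMS (3.4-fold, adjusted p = 0.00223, limma). MET2, homoserine acetyltransferase, read 173 and 187 without and 558 and 622 with MMS (3.28-fold, adjusted p = 1.24e-05, limma). The sulfate permease gene SUL2 read 348 and 332 untreated and 762 and 648 with MMS, and STR3, cystathionine beta-lyase, 682 and 618 without and 1388 and 1207 with MMS (adjusted p = 0.000524 and 0.000163, limma). The risers spanned the route from uptake (SUL2, MUP3) through sulfate activation and reduction (MET3, MET14, MET16, MET1) to homocysteine and cysteine (MET17, CYS4, STR3). MET31, a DNA-binding regulator of the pathway, was the member that fell.

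Other amino acid pathways did not share this. In arginine metabolism 1 of 13 rose (ARG2) and 2 fell, the catabolic genes CAR1 and CAR2. In lysine synthesis 2 of 11 rose and 1 fell. Of 41 other targets of the starvation regulator Gcn4, 5 rose and 4 fell, with a median of 0.02. SER33, of serine synthesis, read 577 and 632 untreated and 894 and 902 with MMS (adjusted p = 0.00132, limma). GLT1, glutamate synthase, fell, from 895 and 1166 to 551 and 561 (-0.88 ± 0.14, adjusted p = 0.00343, limma).

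Iron and copper genes rose in part. Of 28 measured members 11 rose and 3 fell (median 0.22), and 7 of the 11 passed also without each array. TIS11 (CTH2), which degrades messages of iron-using proteins, read 237 and 213 untreated and 722 and 741 with MMS (3.26-fold, adjusted p = 5.04e-06, limma). ISU2, a scaffold for iron-sulfur clusters, read 1172 and 1062 untreated and 2795 and 2775 with MMS (2.5-fold, adjusted p = 4.09e-06, limma). The siderophore transporter gene ARN1 read 871 and 908 without and 1861 and 1838 with MMS (2.08-fold, adjusted p = 0.000241, limma). In each of the 3 the arrays of a condition lay close together and far from the other condition. FIT2, a siderophore-retaining wall protein, was higher by 0.88 ± 0.13 (adjusted p = 0.00262, limma), and the ferric reductase gene FRE1 and transporter genes SIT1, ARN2, ENB1 and CCC2 also rose. The members that fell were HMX1, FET4 (a low-affinity iron transporter) and CTR3 (a copper transporter). HMX1, the haem oxygenase and, as background, an induced gene of the same iron regulator Aft1, showed the lowest fitted value of the whole response. It read 526 and 224 untreated and was at the floor on both MMS arrays, at least 9.97-fold lower (adjusted p = 0.00996, limma), but the untreated arrays lay far apart. The call was lost without untreated array 1 (-2.70, adjusted p = 0.067), without the first MMS array (adjusted p = 0.0634) or the second (adjusted p = 0.0514), and with the floor at the 40th percentile the value was -1.21. It was outside the rule for named genes and was chosen after its values were seen. In wild type HMX1 read 373 and 320.2 untreated, and with MMS it was at the floor on array 1 and read 203.6 on array 2. In C406A it read 472 and 468 untreated and 357 and 435 with MMS.

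The general stress program of Msn2 and Msn4 was induced in 17 of its 32 measured genes, with 0 lower (median 0.41). TFS1, an inhibitor of carboxypeptidase Y, read 461 and 550.5 untreated and 1181 and 1099 with MMS (2.26-fold, adjusted p = 0.000319, limma). HSP12, a membrane-protecting stress protein, read 426 and 382 untreated and 746 and 770.5 with MMS (1.88-fold, adjusted p = 0.00157, limma), and the nicotinamidase gene PNC1 2762 and 3286 without and 5065 and 4350 with MMS (adjusted p = 0.00287, limma). In trehalose and glycogen metabolism 6 of 19 rose and 0 fell (median 0.21). TSL1, a subunit of trehalose synthase, read 686 and 791 untreated and 1265 and 1180 with MMS (adjusted p = 0.000868, limma) and its catalytic partner TPS1 1700 and 1563 without and 2506 and 2346 with MMS (adjusted p = 0.00363, limma). In wild type the same lists gave 28 of 32 and 15 of 19 higher, with medians of 0.96 and 0.83, and in C406A 27 and 16, with medians of 0.78 and 0.58. The difference from wild type itself passed for 3 genes of each list.

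In autophagy and vacuolar sorting 13 of 103 rose and 1 fell, little above the share of all genes. The vacuolar aminopeptidase gene APE1, cargo of the selective pathway, read 485 and 431 untreated and 1055 and 809 with MMS (2.02-fold, adjusted p = 0.000846, limma). Its C403A response was lower than that of wild type by a log2 value of -0.97 ± 0.17 (adjusted p = 0.0341, limma). ATG8, whose lipid-bound product coats the autophagosome membrane, read 1307 and 1266 untreated and 1879 and 1857 with MMS (1.45-fold, adjusted p = 0.00306, limma).

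**Figure D3:**
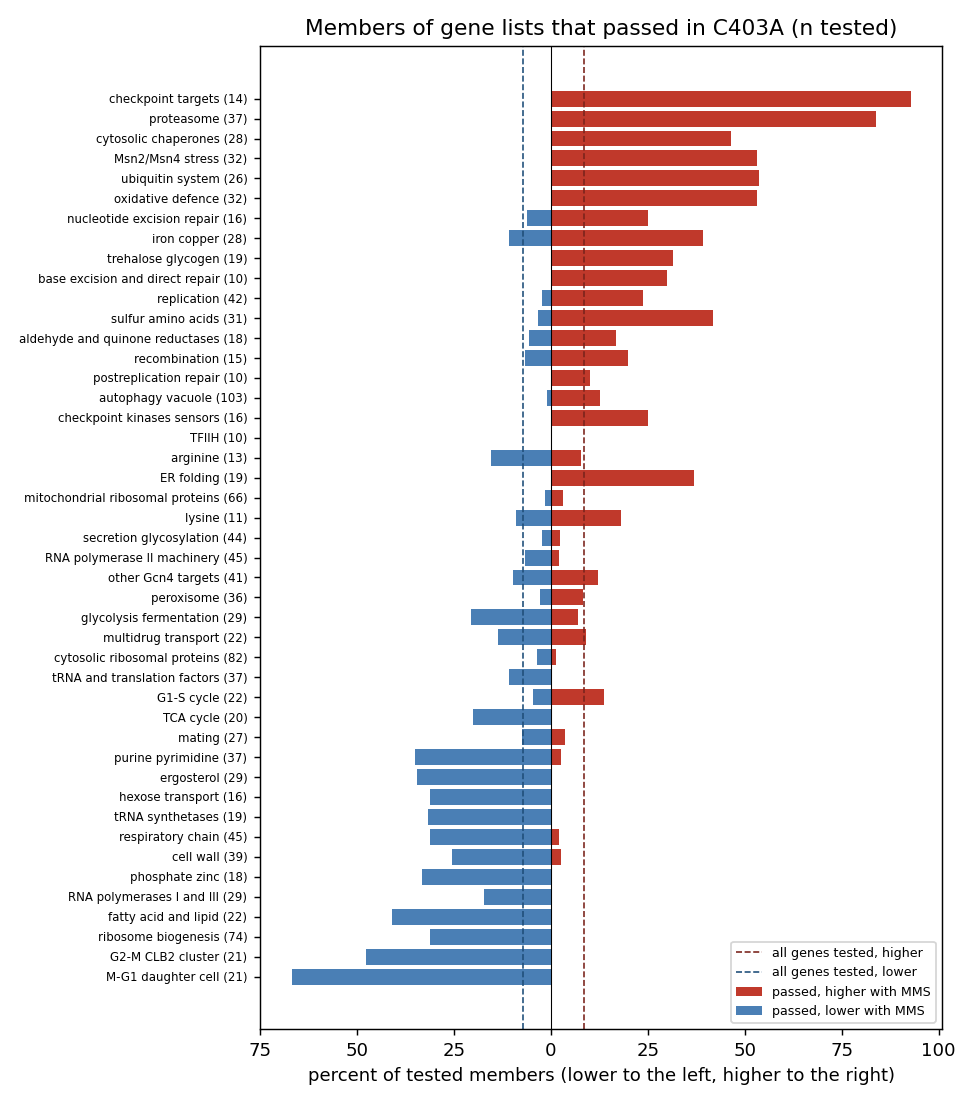
Percent of the tested members of each gene list with at least 10 tested members that passed in C403A, higher with MMS to the right in red and lower to the left in blue, ordered by median log2 change. Dashed lines mark the shares among all genes tested, 8.42% higher and 7.13% lower. Checkpoint targets and proteasome genes reach furthest to the right and daughter-cell genes furthest to the left.

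The largest fall that passed without each array was in COA2, which helps to assemble cytochrome oxidase. COA2 read 212 and 327 untreated and 66.7 and 73.2 with MMS, a change of -1.91 ± 0.30 (3.76-fold lower, adjusted p = 0.0033, limma). SFG1, a regulator of invasive growth and the cell cycle that was named after its values were seen, read 339 and 260.4 without and 89.2 and 99.2 with MMS (3.16-fold lower, adjusted p = 0.00627, limma), but did not pass without MMS array 1 (-1.58, adjusted p = 0.05). Beyond pathway genes, SAP185, a partner of the phosphatase Sit4, read 697 and 637 untreated and 354 and 337 with MMS (adjusted p = 0.000288, limma). TLC1, the telomerase RNA, read 409.9 ± 9.82 (SD, n = 2) untreated and 222 and 213 with MMS (-0.91 ± 0.09, adjusted p = 0.000325, limma). MOT1, which removes the TATA-binding protein from DNA, stood at 408 and 359 untreated and 206 and 225 with MMS (adjusted p = 0.0013, limma). MIN7, for which no role is given here, read 437 and 474 without and 229 and 217 with MMS (adjusted p = 0.00248, limma). In all 6 both MMS arrays lay below both untreated arrays, as in every gene that passed as a fall.

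Sterol synthesis genes fell in part. Of 29 ergosterol genes 10 fell and 0 rose, and 7 of the 10 passed also without each array, although the list median was only -0.13. ERG5, the sterol desaturase of a late step, read 878 and 835 untreated and 377 and 388 with MMS (2.24-fold lower, adjusted p = 0.000254, limma). CYB5, the cytochrome that supplies electrons to sterol and fatty acid enzymes, read 824 and 712 untreated and 347 and 377 with MMS (2.12-fold lower, adjusted p = 0.000212, limma). HMG1, the reductase that commits carbon to the pathway, read 1986 and 1826 without and 1236 and 1258 with MMS, and ERG11, the demethylase that azole drugs inhibit, 4231 and 4479 untreated and 2844 and 2914 with MMS (adjusted p = 0.000851 and 0.00012, limma). Of 22 fatty acid and lipid genes 9 fell and 0 rose (median -0.17). SUR2, a sphingolipid hydroxylase, read 1248 and 1219 without and 749.7 and 709 with MMS (-0.76 ± 0.07, adjusted p = 0.000254, limma). OLE1, the fatty acid desaturase, read 3804 and 4048 untreated and 2469 and 2829 with MMS (adjusted p = 0.00519, limma). The elongase gene ELO2 and the inositol permease gene ITR1 fell by 0.51 ± 0.08 and 0.49 ± 0.06 (adjusted p = 0.00254 and 0.000659, limma).

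In nucleotide salvage and synthesis 13 of 37 genes fell and 1 rose (median -0.10). AAH1, adenine deaminase, read 717 and 572 untreated and 303 and 323 with MMS (2.04-fold lower, adjusted p = 0.001, limma). HPT1, which salvages hypoxanthine and guanine, read 784 and 799 without and 451 and 443 with MMS (adjusted p = 0.000548, limma). URA2, the first enzyme of pyrimidine synthesis, read 7464 and 7922 untreated and 4971 and 4412 with MMS (adjusted p = 0.000288, limma), and FUI1, the uridine permease, 1810 and 2271 without and 1248 and 1323 with MMS (adjusted p = 0.00333, limma). The ribonucleotide reductase genes above moved the other way.

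Some transporter genes for sugar, phosphate and zinc fell. Of 16 hexose transport genes 5 fell and 0 rose (median -0.14): HXT2, HXT1, the sensor genes SNF3 and RGT2, and the signalling gene STD1. HXT2 read 2087 and 1893 untreated and 1049 and 1182 with MMS (-0.84 ± 0.11, adjusted p = 0.00132, limma), and SNF3, a glucose sensor, 135 and 130.3 untreated and 81.6 and 81.2 with MMS (adjusted p = 0.00687, limma). Of 18 phosphate and zinc genes 6 fell and 0 rose. The acid phosphatase gene PHO5 read 3323 and 3239 without and 2399 and 2383 with MMS (adjusted p = 0.0012, limma), while ZRT1, a zinc transporter, is uncertain because another of its probe sets moved the other way. ATO3, of the ammonium and acetate transporter family, read 1039 and 1005 untreated and 560 and 571 with MMS (adjusted p = 0.000248, limma), and AQR1, an exporter of the major facilitator family, 512 and 502 without and 261 and 282 with MMS (adjusted p = 0.000288, limma). Among 22 multidrug transport genes 2 rose and 3 fell. QDR3 was lower by a log2 value of -0.40 ± 0.07 (adjusted p = 0.00534, limma), and PDR5 is uncertain for the same reason as ZRT1.

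Respiratory genes fell in part. Of 45 members 14 fell and 1 rose (median -0.15), and 9 of the 14 passed also without each array. CYT1, cytochrome c1, read 1815 and 1886 untreated and 1139 and 1076 with MMS (adjusted p = 0.000133, limma). CYC1, the main cytochrome c, read 2166 and 2444 untreated and 1564 and 1422 with MMS (adjusted p = 0.000969, limma). COX5A, the oxygen-induced subunit of cytochrome oxidase, read 2342 and 2222 untreated and 1630 and 1428 with MMS (adjusted p = 0.000942, limma). HAP4, the activator of this program, was among those that fell, and the riser was CYC7, the minor cytochrome c of low oxygen and stress. In the TCA cycle 4 of 20 fell and 0 rose. In glycolysis and fermentation 6 of 29 fell and 2 rose, GLK1 and GPD1. The phosphofructokinase genes PFK1 and PFK2 fell by 0.33 ± 0.06 and 0.42 ± 0.05 (adjusted p = 0.00483 and 0.00104, limma).

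Ribosome biogenesis genes fell in part in C403A. Of 74 members 23 fell and 0 rose, with a median of -0.22, and 6 of the 23 passed also without each array. DBP2, an RNA helicase of ribosome assembly, read 2013 and 2432 untreated and 1313 and 1349 with MMS (adjusted p = 0.00262, limma), and DBP3, another, 1135 and 1216 untreated and 624 and 839 with MMS (adjusted p = 0.00528, limma). NOG1 and NOG2, GTPases of large-subunit maturation, fell by 0.67 ± 0.11 and 0.57 ± 0.09 (adjusted p = 0.00421 and 0.00265, limma). In wild type 65 of the 74 fell, with a median of -0.58, and in C406A 65, with a median of -0.52. The difference between C403A and wild type passed for 2 of them. RNA polymerase I and III genes gave 5 of 29 lower and 0 higher in C403A, against 20 in wild type and 17 in C406A. RPA190, the largest subunit of RNA polymerase I, read 3021 and 2622 untreated and 2058 and 2091 with MMS (adjusted p = 0.00262, limma). Cytosolic ribosomal protein genes were below the share of all genes in both directions, with 1 of 82 higher and 3 lower and a median of -0.01. RPL22B was one of those that fell, by 0.60 ± 0.10 (adjusted p = 0.00441, limma). Mitochondrial ribosomal proteins had 2 of 66 higher and 1 lower, and translation factors 0 of 37 higher and 4 lower. Of 19 tRNA synthetase genes 6 fell and 0 rose, none of them without each array.

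Genes of 2 cell cycle lists fell in larger shares. The daughter-cell and M-G1 list had the highest share of falls of the lists shown, 14 of 21 with 0 higher and a median of -0.44, and 7 of the 14 passed also without each array. SUN4, a wall protein of septation, read 1729 and 1528 untreated and 947 and 1054 with MMS (-0.70 ± 0.08, adjusted p = 0.000717, limma). FAR1, the G1 cyclin-kinase inhibitor, read 1531 and 1403 without and 948 and 968 with MMS (adjusted p = 0.00412, limma). ASH1, the daughter-specific repressor of mating type switching, read 1458 and 1429 untreated and 1017 and 908 with MMS (adjusted p = 0.0011, limma), and SCW11, a glucanase of cell separation, 599 and 589.8 without and 402 and 431 with MMS (adjusted p = 0.00223, limma). The separation enzymes DSE2, DSE4, EGT2 and CTS1 were also among the 14. In wild type 10 of the 21 fell and in C406A 8, with medians of -0.30 and -0.25, and the difference from wild type passed for none of these genes. In the G2-M cluster of CLB2 10 of 21 fell and 0 rose (median -0.37), including the mitotic cyclin genes CLB1 and CLB2. ALK1, a haspin kinase, read 527 and 574 untreated and 323 and 333 with MMS, and the polo kinase gene CDC5 675 and 645 untreated and 482 and 471 with MMS (adjusted p = 0.00117 and 0.0024, limma). BUD4 lost its call with the mean of its probe sets. In the G1-S list 3 of 22 rose (PLM2, TOS4 and the thymidylate synthase gene CDC21) and 1, the G1 cyclin gene CLN2, fell. Of the 4 measured histone genes, those for both copies of H2B fell, and HTB1 read 4350 and 4489 without and 3455 and 2969 with MMS (adjusted p = 0.0033, limma).

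Of 39 tested members of the cell wall list 10 fell and 1 rose. The falls included the chitin synthase genes CHS1 and CHS3 and the regulator gene RLM1. The riser was MLP1, matched by its current symbol, which is that of a nuclear pore protein and not of a cell wall gene. PIR1, a heat-stable wall protein, read 3780 and 3846 untreated and 3000 and 2834 with MMS, and the transglycosylase gene UTR2 4534 and 4012 untreated and 3425 and 3323 with MMS (adjusted p = 0.00246 and 0.00715, limma). Lists at or below the share of all genes in both directions were secretion and glycosylation (1 of 44 higher, 1 lower), the RNA polymerase II machinery (1 of 45 higher, 3 lower) and peroxisomes (3 of 36 higher, 1 lower). Of 27 mating genes 1 rose and 2 fell.

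How far the response was shared between strains was examined against wild type and C406A, whose treated and untreated arrays are separate from those of C403A. In wild type 1027 genes rose (19.1%) and 744 fell (13.9%), and in C406A 684 rose (12.7%) and 604 fell (11.2%). Of the 452 C403A rises 380 also passed as rises in wild type, 84.1% of the C403A rises and 37.0% of the wild-type rises. Of the 383 falls 261 were shared, 68.1% and 35.1%. With C406A 327 rises (72.3% of those in C403A, 47.8% of those in C406A) and 243 falls (63.4% and 40.2%) were shared. Opposite calls were few, 4 with wild type and 1 with C406A. A further 143 genes, 56 higher and 87 lower, passed only in C403A, which does not show that they differ between strains. Across all genes tested the log2 changes correlated at r = 0.669 with wild type and 0.66 with C406A, given as a description.

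To set the size of the C403A response beside that of wild type on genes that neither strain had chosen, the genes that passed in C406A were used. For the 684 that rose there, the mean log2 intensity in C403A was 8.85 and 8.94 untreated and 9.31 and 9.27 with MMS, and in wild type 8.67 and 8.65, then 9.35 and 9.30. With MMS the strains were thus near each other, and untreated C403A lay above untreated wild type. For the 604 that fell, C403A went from 9.53 and 9.48 to 9.19 and 9.21, and wild type from 9.66 and 9.62 to 9.14 and 9.19. The difference between both sets moved by 0.702 in C403A and by 1.14 in wild type, so the C403A response was 61.5% of that of wild type. With the C406A genes chosen anew in each fit, the share ran from 53.9% to 68.7% without 1 array. It was 71.2% on the values as deposited, over 1530 genes that rose and 22 that fell in C406A. With hybridization control scaling it was 68.2%, over 886 and 61 genes. These shares are thus not of the same genes as the 61.5%. By sign alone, with no test, 636 of the 684 values were above 0 and 569 of the 604 below 0 in C403A, against 672 and 590 in wild type. In C403A 327 of the former and 243 of the latter passed.

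**Figure D4:**
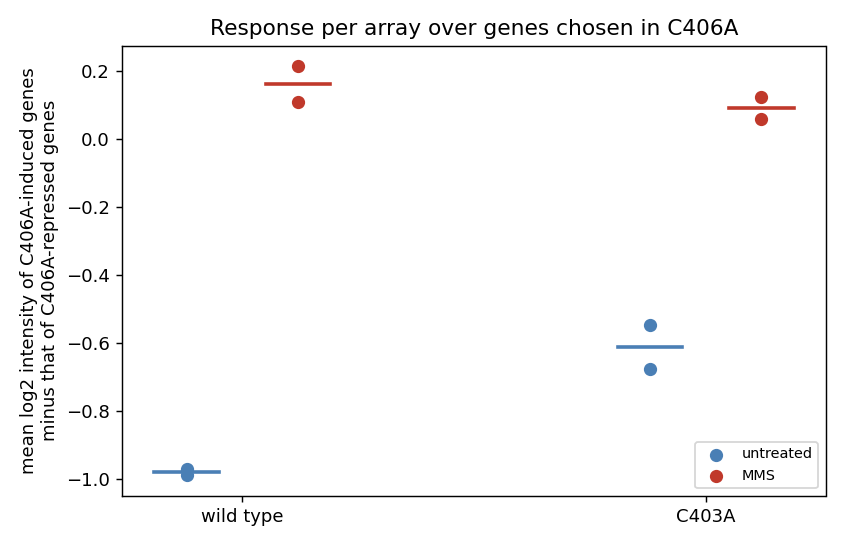
Mean log2 intensity of the 684 genes that rose in C406A minus that of the 604 genes that fell there, for each wild-type and C403A array, with bars at the group means. The untreated C403A arrays (-0.675 and -0.547) lie above the untreated wild-type arrays (-0.989 and -0.970), and the MMS arrays of both strains lie between 0.060 and 0.214.

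The difference between the responses of C403A and wild type passed for 53 genes (0.987% of those tested), 17 with a higher and 36 with a lower value in C403A. The count was 2 on the values as deposited and with hybridization control scaling, 1 with the compared groups alone and 2 (without wild-type MMS array 1) to 91 (without C403A untreated array 1) without 1 array. Without wild-type MMS array 2 the split turned to 33 higher and 22 lower. In 51 of the 53 the C403A change was the smaller in size, 36 had risen and 16 had fallen in wild type, and C406A lay between the other strains in 46. Of the 36, untreated C403A was above untreated wild type in 34, and of the 17 it was below in 15. The response and the untreated difference share the untreated arrays, so these counts are not independent of each other.

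RTC2, a vacuolar transporter gene for cationic amino acids, showed the largest such difference. It read 151 and 189 on the untreated C403A arrays and 201 and 172 with MMS. In wild type it was at the floor on both untreated arrays and read 234 and 222 with MMS, and in C406A it read 82.4 and 91.2 without and 299 and 334 with MMS. The C403A response was lower by a log2 value of -2.59 ± 0.20 than that of wild type (adjusted p = 0.00117, limma), and passed without each array, but not with the 40th percentile floor (-0.48, adjusted p = 0.177). Its size is inexact, because the untreated wild-type level is only a bound. ADH5, an alcohol dehydrogenase isozyme, read 1090 and 1372 untreated and 963 and 879.8 with MMS in C403A, where wild type went from 927 and 916 to 1879 and 1853 and C406A from 1009 and 1034 to 1686 and 1755. The difference from wild type was -1.43 ± 0.14 (adjusted p = 0.00428, limma) and passed without each array. It was lost on the values as deposited (-1.31, adjusted p = 0.193) and with the compared groups alone (adjusted p = 0.0667). ADH5 within C403A was -0.41 (adjusted p = 0.0203, limma), a fall that was lost without untreated array 2 (-0.24) or without either MMS array.

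The autophagy kinase gene ATG1 read 94.9 and 103 without and 63.6 and 123 with MMS in C403A against 73 and 51.3 untreated and 260.1 and 251 with MMS in wild type (-2.22 ± 0.40, adjusted p = 0.037, limma), a call lost when any 1 of 11 arrays was left out. BTN2, which sorts misfolded proteins, read 615 and 818 without and 1233 and 1141 with MMS against 334 and 386 untreated and 1347 and 1460 with MMS (-1.22 ± 0.22, adjusted p = 0.0379, limma) and lost its call when any 1 of 9 arrays was left out. In both genes the wild-type rise was the larger. The other genes with a lower response named by rule were the protease gene YPS6, the exchanger gene ECM27, the transporter gene ATR2 and YCR099C, with differences between -1.59 and -1.15, and they lost their calls without 10, 10, 12 and 3 of the 12 arrays. ATR2 was at the floor on 3 of the 4 C403A arrays, and its difference turned to 0.46 with no floor.

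Of the genes with a higher value in C403A, 8 were named by size. The list of ribosome biogenesis genes held 2 of the 53. SAS10, of the small-subunit processome, read 1266 and 1359 without and 1245 and 1364 with MMS in C403A and 1706 and 1736 untreated and 1014 and 997 with MMS in wild type, a difference of 0.77 ± 0.09 (adjusted p = 0.0136, limma). ALB1, a factor of large-subunit export, read 1215 and 1199 without and 936 and 1005 with MMS against 1510 and 1613 untreated and 727 and 748 with MMS (0.77 ± 0.09, adjusted p = 0.0136, limma). The wild-type fall was the larger in both, and both calls were lost without wild-type MMS array 1 alone. NOP16 and FAL1, of large-subunit and small-subunit assembly, differed by 0.82 ± 0.10 and 0.84 ± 0.14 (adjusted p = 0.017 and 0.028, limma), and lost their calls without 2 and 9 arrays. PPT2, a phosphopantetheine transferase of mitochondria, read 202 and 170.3 without and 380.5 and 366 with MMS in C403A and 166 and 158 untreated and 156 and 174 with MMS in wild type. Its rise in C403A was 1.01 ± 0.13 (adjusted p = 0.00101, limma) and the difference 0.99 ± 0.18 (adjusted p = 0.0379, limma), lost when any 1 of 9 arrays was left out. MF(ALPHA)2, an alpha-factor pheromone gene, read 536 and 467 without and 702 and 754 with MMS in C403A and 313 and 352 untreated and 253 and 248 with MMS in wild type (0.95 ± 0.14, adjusted p = 0.0218, limma), lost when any 1 of 6 arrays was left out. YFR035C, at intensities near the floor, and RFU1, an inhibitor of the deubiquitinase Doa4, differed by 1.37 ± 0.22 and 0.77 ± 0.13 (adjusted p = 0.028 and 0.0336, limma), lost when any 1 of 7 and 11 arrays was left out.

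**Figure D5:**
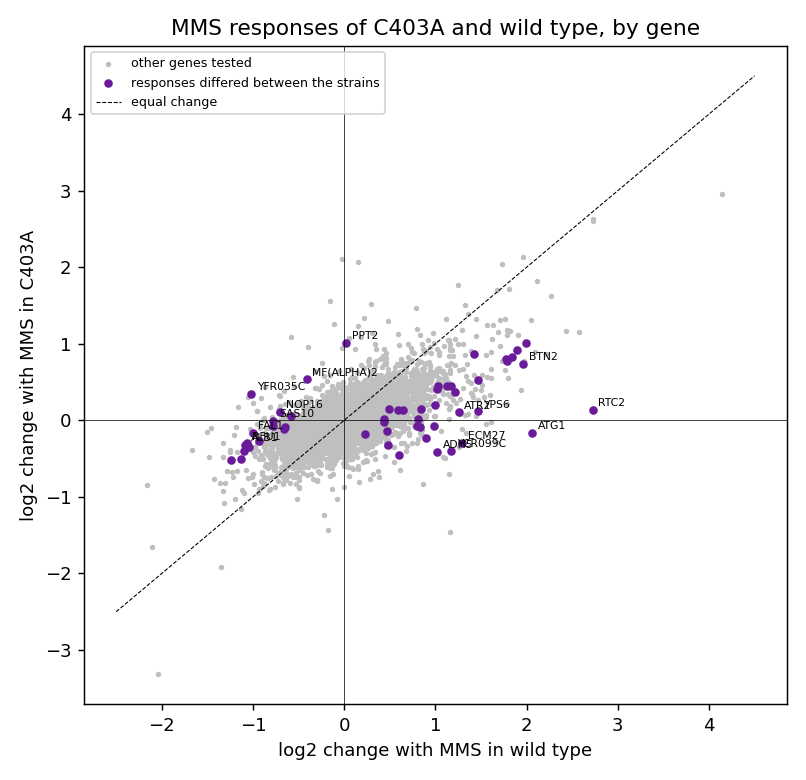
Log2 change with MMS in C403A against that in wild type, one point per gene tested. Purple points are the 53 genes whose responses differed between the strains, of which 16 are named, and the dashed line marks equal change. In 51 of the 53 the C403A change is the smaller in size, as with RTC2 at 2.72 in wild type and 0.14 in C403A.

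Between the mutants, 6 genes passed (0.112%), 2 with a higher and 4 with a lower value in C403A. RTC2 and ADH5 were among the lower. YAP1801, a clathrin assembly protein, read 576 and 677 without and 594 and 596 with MMS in C403A and 345 and 365 untreated and 704 and 755 with MMS in C406A (-1.11 ± 0.15, adjusted p = 0.0296, limma). SNZ1, of vitamin B6 synthesis, read 1278 and 1202 without and 1301 and 1114 with MMS against 1168 and 1216 untreated and 2020 and 2022 with MMS (-0.80 ± 0.11, adjusted p = 0.0296, limma). In both genes the C406A arrays separated by treatment and the C403A arrays overlapped. UTP23, of the small-subunit processome, and RBG1, a ribosome-binding GTPase, were higher by 0.85 ± 0.12 and 0.45 ± 0.06 (adjusted p = 0.0296 and 0.0296, limma). Each of the 6 calls was lost when any 1 of 8 of the 12 arrays was left out.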

How the data were processed

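The deposited table holds one-colour signal intensity on a linear scale for 9335 probe sets on 12 arrays, per the file headers. How probes were summarized or scaled was not given in the sources used here. Negative values made up 8.95% of the table. Array medians differed by up to 1.686-fold. The table held 0 columns of other samples. Intensities were quantile-normalized without the 60 control probe sets, floored at the 20th percentile (34.463) and put on the log2 scale. Probe sets with 1 gene in the platform annotation (6504, where 328 had several) stood for 5656 genes, the brightest taken where there were several. All 5656 symbols matched a RefSeq table of the R64 assembly. Genes above the floor on fewer than 2 arrays were left out (287), and 5369 were tested. Of 40 passed genes with other probe sets, 13 had one of opposite sign.

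Means of the 6 groups were fitted with limma 3.58.1 in R 4.3.3 over all 12 arrays, without a block, using lmFit and then eBayes with its trend option (residual degrees of freedom 6, prior 3.53). Compared were treated with untreated cells of each strain, and the differences of the C403A response from the others. The threshold was a Benjamini-Hochberg adjusted p of 0.05. A group wholly at the floor gives a bound. Probe-level data and detection calls were not used here, so the floor stands in for background.

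The members and the 47 gene lists were chosen with earlier results of these data known. Lists are described by counts and medians, with no test of their own. Genes were named by a rule. It took the 12 largest changes each way that passed also without each array, and at most 4 per list and direction under the same conditions. Added were the 8 largest differences each way between strains, and 8 genes always. The conditions also required that the treated and untreated C403A arrays did not overlap and that neither C403A group lay wholly at the floor. The scripts were tested on simulated data. Alternatives were other scalings, floors, filters and fits, and leaving out each array. Plots were made in Python 3.11.15 with matplotlib 3.10.9.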

Additional observations from a re-analysis of the deposited data

Results flagged for a closer look

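The MMS response of C403A differed from that of wild type by a test of the difference itself (limma, 53 genes passed). Of the 16 genes named by size, those with a lower value in C403A were RTC2 (-2.59 on the log2 scale), ATG1 (-2.22), ECM27 (-1.59), YCR099C (-1.57), ADH5 (-1.43), YPS6 (-1.35), BTN2 (-1.22) and ATR2 (-1.15). Those with a higher value were YFR035C (1.37), PPT2 (0.99), MF(ALPHA)2 (0.95), FAL1 (0.84), NOP16 (0.82), RFU1 (0.77), SAS10 (0.77) and ALB1 (0.77). Of these, RTC2 and ADH5 passed without each array in turn.

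Against C406A the same test passed for 6 genes. RTC2 (-1.73), ADH5 (-1.16), YAP1801 (-1.11) and SNZ1 (-0.80) were lower in C403A, and UTP23 (0.85) and RBG1 (0.45) were higher.

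Untreated C403A array 2 carried a mean intensity of 1775 over the ribosomal RNA probe sets, outside the genes compared, where the other 11 arrays ran from 53.7 to 650.8. Its part in the results was not tested beyond leaving the array out, after which 741 genes passed in the C403A response.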

How the results depend on the processing

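The 835 calls of the C403A response became 367 on the values as deposited, 212 with hybridization control scaling, 109 in a fit to the C403A arrays alone, and 326 to 799 without 1 array. The 53 differences from wild type became 2 as deposited, 2 with hybridization control scaling, 1 with the compared groups alone, 29 with array weights and 2 to 91 without 1 array. The 6 differences from C406A became 2 as deposited, 18 with the 40th percentile floor, 15 with no filter, 1 with no trend, 14 with the mean of probe sets, 0 with the compared groups alone and 0 to 64 without 1 array. Where limma gave 0, between 402 and 586 genes had an unadjusted p under 0.05. The difference between genes chosen in C406A moved by 0.899 as deposited, 0.939 with hybridization control scaling and 0.593 to 0.865 without 1 array, against 0.702. These genes were chosen anew in each fit. SSL1 turned from 0.03 to -0.133 with median scaling and -0.242 with hybridization control scaling, and ATR2 against wild type turned to 0.458 with no floor. The cause of these moves was not tested, except that fits to fewer arrays have fewer degrees of freedom.

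Of the 114 named genes that passed in C403A, 51 lost the call on the values as deposited, 32 with hybridization control scaling and 62 with the compared groups alone, and at most 3 under any other alternative. None changed direction under these alternatives. Beside those named above, BTN2 in C403A was lost without MMS array 1 (0.69, adjusted p = 0.0916) and without untreated array 1 (0.54, adjusted p = 0.0775), ALB1 without MMS array 1 (-0.27, adjusted p = 0.0835), and MF(ALPHA)2 without MMS array 2 (0.49, adjusted p = 0.0519). List medians of ribosome biogenesis (0.06), ergosterol (0.10) and respiratory genes (0.05) lay above 0 on the values as deposited, where the median of all genes was 0.28. No paired analysis was possible because the labels give the arrays no replicate numbers. Signal near the floor limits low genes such as RNR3, PLM2 and HMX1.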

Other observations

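Probe sets without a single named gene were not part of the comparisons. In a fit over all probe sets, 24 of 1497 with no gene in the annotation rose and 50 fell with MMS in C403A, and 3 of 301 that match several genes rose and 15 fell, against 405 higher and 335 lower of 6047 with 1 gene. What the unnamed probe sets measure is not given in the annotation used here.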
